A study of Mus musculus with 4 samples.

Results

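The 7 imprinted domains described here are stretches of mouse chromosomes 2, 6, 7, 12 and 17 around genes that are transcribed mainly from 1 parental copy. They were set by position in the mm9 build, with no measured value used, as chr7:149700000-150900000 (H19 to Phlda2), chr7:66400000-69700000 (Ube3a, Snrpn and Ndn), chr12:110650000-111050000 (Dlk1 and Meg3), chr17:12650000-13100000 (Igf2r and Airn), chr2:174050000-174250000 (Gnas), chr7:6550000-6750000 (Peg3) and chr6:30600000-30800000 (Mest). Together they cover 5.95 Mb and are compared with the 1 Mb on either side of each. Their members are the CpG positions that the authors listed there. These numbered 715 of 331875 in the first whole-genome library, 247 of 118502 in the second, 29 of 12895 in the control shRNA library and 15 of 8948 in the Tdg shRNA library.

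All 4 libraries were of genomic DNA from the mouse embryonic stem cell line E14 and were made by methylation-assisted bisulfite sequencing (MAB-Seq). DNA of wild-type cells was sheared for 2 whole-genome libraries, while DNA of cells with a control shRNA and of cells with an shRNA against Tdg was cut with MspI, 1 reduced-representation library each. In this assay the enzyme M.SssI first methylates the unmodified CpGs. A CpG cytosine that bisulfite still converts may have held 5-carboxyl- or 5-formylcytosine or been missed by M.SssI. Other sources of converted reads were not examined here. The labels do not say whether both wild-type libraries came from separate cultures, nor how far Tdg was reduced.

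At an imprinted domain, one or more stretches of CpGs carry methylation from 1 parent only, set in the germ line and kept in the cells of the embryo. These stretches govern which copy of the nearby genes is read. TET enzymes oxidise 5-methylcytosine stepwise to 5-hydroxymethyl-, 5-formyl- and 5-carboxylcytosine, and the DNA glycosylase TDG removes the formyl and carboxyl forms so that repair restores an unmodified cytosine.

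The sequences of 5 runs of CpGs are shown first, because these are the only places in the domains where the first library listed 3 or more CpGs with no gap over 5 bases, whatever their level. Each was joined from the overlapping 5-base contexts that the authors listed on the plus strand of mm9, and capitals mark the listed CpGs. The first group lies within 81 bases of the Dlk1 and Meg3 domain.
chr12:110945425-110945441: tgCGtgCGtgCGtgCGt
chr12:110945445-110945461: tgCGtgCGtgCGtgCGt
chr12:110945483-110945497: tgCGCGCGCGCGCGt
Another run, at chr17:12717461-12717471, lies in the Igf2r and Airn domain and the last, at chr7:6576934-6576944, in the Peg3 domain.
chr17:12717461-12717471: tgCGCGtgCGt
chr7:6576934-6576944: atCGCGtgCGt
All 5 runs hold the bases TGCG, and 4 of them begin with tg before the first listed CpG. The level is the share of converted reads after the authors' background correction. In the order of the CpGs, the first library's levels were 43.8, 71.9, 81.2 and 71.9% in the first run. The second run held 27.5, 52.1, 51.2 and 49.2%. In the third, they were 69.3, 73.1, 62.8, 50.8, 71.6 and 63.1%. The Igf2r and Airn run had 55.6, 80.9 and 48.5%, and the Peg3 run 52.8, 18.4 and 40.3%. All but 1 of these CpGs lay at 27.5% or more, far above the domains' median of 10.5%. Such runs were not counted in the flanks or over the autosomes. The right flank of H19 to Phlda2 also held closely spaced CpGs, some at 35.2 to 100% and others at 0%. The second whole-genome library listed 2 CpGs of the second run and all 6 of the third, and no CpG of the other 3 runs.

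The only promoter of the listed genes that could be placed on the files' sites was that of Igf2r, the receptor that carries insulin-like growth factor 2 to lysosomes. It is shown because the first whole-genome and the control shRNA libraries listed CpGs within it. The 300 bases run 5′ to 3′ on the gene's minus strand, from 250 bases before to 50 bases after the start, as in RefSeq for GRCm38.p6. No coordinates were converted. The 5-base contexts and the spacing of the listed mm9 positions were matched to 32851 promoters, a search chosen after the data had been seen. The Igf2r promoter matched at 7 positions and the next best promoter at 5. Capitals mark the 7 listed CpGs among its 34.
Igf2r promoter: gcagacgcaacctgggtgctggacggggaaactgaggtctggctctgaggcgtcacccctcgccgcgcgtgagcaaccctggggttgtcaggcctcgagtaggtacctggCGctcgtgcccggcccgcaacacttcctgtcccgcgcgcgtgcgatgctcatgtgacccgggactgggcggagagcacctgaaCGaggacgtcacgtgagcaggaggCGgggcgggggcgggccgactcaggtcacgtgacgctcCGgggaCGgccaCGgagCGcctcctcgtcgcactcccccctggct
Of the 7, 5 were listed in the first whole-genome library, at 0, 7.42, 9.48, 0 and 0% in the order of mm9 positions from 12962549 to 12962711. The control shRNA library listed the remaining 2, at 14.2 and 22.8%. Neither the second whole-genome nor the Tdg shRNA library listed a CpG there.

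The density of listed sites separated the domains from one another more than it separated domains from flanks. In the first whole-genome library, it ran from 36.4 sites per Mb at Ube3a, Snrpn and Ndn to 370 at Gnas. In the second, it ran from 12.7 to 150 per Mb over the same 2 domains. These densities are per base and not per CpG, since the CpG number and the read coverage of each domain were not analysed here. In each whole-genome library, 5 of the 7 domains lay above the autosomal density, which was 135.1 per Mb in the first and 47.6 per Mb in the second. Peg3 in the second library was only 1.05 times as dense. The share of autosomal windows of like length above this density was not computed, so the count does not set the domains apart.

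**Figure D1:**
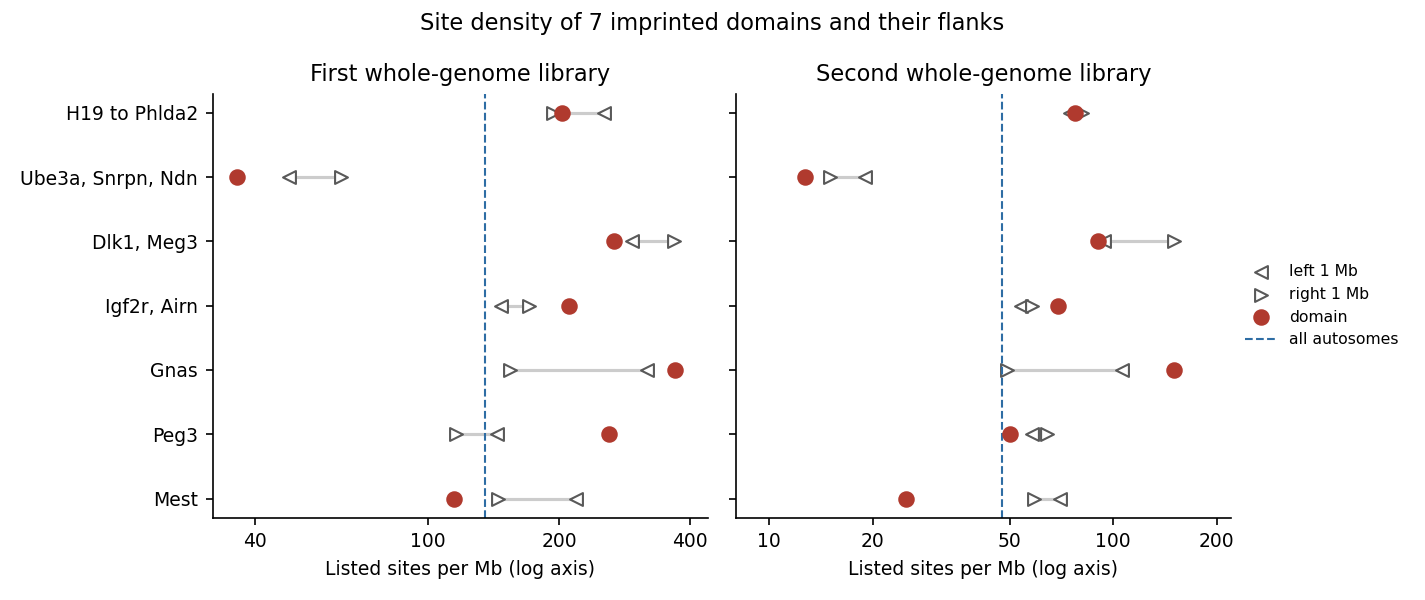
Listed sites per Mb (log axis) in each imprinted domain (filled circles), in the 1 Mb to its left and right (triangles) and over all autosomes (dashed line), for both whole-genome libraries. Gnas lay above both of its flanks and Mest below both of its flanks in each library, while Peg3 changed sides.

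Gnas, whose main product is the stimulatory G protein alpha subunit, had the highest density. Its 200 kb held 74 sites in the first library, against 318 in the left and 154 in the right flank of 1 Mb. The density was 1.57 times that of the flanks (95% interval 1.21 to 2.01). In the second library the domain held 30 sites, against 106 and 49 in the flanks, a ratio of 1.94 (1.26 to 2.88). Over both libraries the log2 ratio was 0.80 ± 0.21 (SD, n = 2).

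Igf2r and Airn, the receptor gene and the noncoding RNA that overlaps it, also lay above both flanks in either library. The domain had 95 sites in the first library and flanks of 147 and 171, which gave a ratio of 1.33 (1.04 to 1.67). The second library had 31 sites between flanks of 54 and 58, at a ratio of 1.23 (0.798 to 1.85). Only the first of these intervals leaves out 1. The log2 ratio was 0.35 ± 0.08 (SD, n = 2), and with flanks of 0.5 Mb it was 0.056.

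Peg3, which encodes a zinc finger protein, gave opposite directions. Its 52 sites in the first library were 2 times as dense as its flanks of 144 and 116 sites (1.46 to 2.70). Its 10 sites in the second library were 0.820 times as dense as flanks of 58 and 64 (0.383 to 1.56). Its log2 ratio of 0.36 ± 0.91 (SD, n = 2) is smaller than the spread between libraries.

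H19 to Phlda2, the region that also holds the growth factor gene Igf2 and the cell cycle inhibitor gene Cdkn1c, did not stand apart from its flanks. The first library listed 244 sites there (203 per Mb), with 254 and 194 in the flanks, and the ratio was 0.908 (0.773 to 1.06). The second listed 93 sites, with 75 and 81 in the flanks, at a ratio of 0.994 (0.760 to 1.29).

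Dlk1 and Meg3, a gene for a Notch-like membrane protein and a noncoding RNA gene, lay in site-rich surroundings. The domain had 107 sites (268 per Mb) in the first library, below flanks of 294 and 368 sites, at a ratio of 0.808 (0.653 to 0.993). In the second library its 36 sites lay below flanks of 94 and 150, at a ratio of 0.738 (0.505 to 1.05). The log2 ratio was -0.37 ± 0.09 (SD, n = 2).

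Mest, which encodes a protein of the hydrolase fold, was sparse. Its 200 kb held 23 sites in the first library, with 219 and 145 in the flanks, a ratio of 0.632 (0.395 to 0.963). The 5 sites of the second library stood against 70 and 59, a ratio of 0.388 (0.124 to 0.928). Both intervals lie below 1, and the log2 ratio was -1.01 ± 0.50 (SD, n = 2).

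The Ube3a, Snrpn and Ndn domain, with genes for a ubiquitin ligase, a splicing protein and a protein of the MAGE family, is the longest at 3.3 Mb and had the lowest density. The first library listed 120 sites, and 48 and 63 in the flanks, at a ratio of 0.655 (0.502 to 0.856). The second listed 42 sites, with 19 and 15 in the flanks, at a ratio of 0.749 (0.465 to 1.21). Flanks of 2 Mb lowered the ratio over both libraries to 0.361.

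A fold of 1.5 against the flanks is common in the genome, so these ratios do not set the domains apart from other regions. Above it lay 2 of the 7 domains in the first library (Gnas and Peg3) and 1 in the second (Gnas), all of 200 kb. Of autosomal windows of 200 kb, 18.5% in the first library and 20.4% in the second were as far above their own flanks. Below 1 / 1.5 lay Mest in both libraries, where 36.3% and 41.9% of such windows lay as low, and Ube3a, Snrpn and Ndn in the first library only. Windows of 3300 kb lay as low in 21.5% of cases in the first library and 25.8% in the second. Neither domain of about 400 kb passed this fold in either library. For windows of 400 kb the shares were 17.4% above and 31.7% below in the first library, and 19.8% and 37.9% in the second.

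Pooled over the 7 domains, the density was 120.2 per Mb against 188 in the flanks in the first library, a ratio of 0.638 (0.587 to 0.694). The second library gave 41.5 against 68 per Mb, a ratio of 0.610 (0.529 to 0.703). This pooled value reflects which domain is longest. The sparse Ube3a, Snrpn and Ndn domain makes up 55.5% of the domains' length, and its flanks make up 14.3% of the flanks' length. With each flank weighted by the length of its domain, the first library's ratio was 0.934 and the second's 0.935. Without that domain they were 1.07 and 1.01.

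Within the domains the sites were unevenly spread. Of their 595 windows of 10 kb, 243 (40.8%) held a site of a whole-genome library, against 50.6% of autosomal windows. This share is set by Ube3a, Snrpn and Ndn, where 64 of 330 windows (19.4%) held a site. Without it, a choice made after seeing the data, it was 179 of 265 (67.5%). Mest had 6 of 20 (30%), and the other 5 domains lay between 62.5% at H19 to Phlda2 and 90% at Gnas. Of all domain windows, 25 (4.20%) held 10 or more sites, against 3.80% of autosomal ones. Neighbouring sites of the first library lay a median of 498.5 bases apart, against 922 in the flanks, and those of the second library 3265.5 against 3467. Between domains, the first library's median ran from 139 bases in Peg3 to 1391.5 in Igf2r and Airn.

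The densest window of each domain shows where its sites gathered. At H19 to Phlda2 it was chr7:149840001-149850000, with 18 sites of the first and 12 of the second library, all of the first library's at 18.2% or less. At Gnas, chr2:174150001-174160000 held 20 and 9 sites, with 2 more of the control and 1 of the Tdg shRNA library, and first-library levels up to 48.5%. In Dlk1 and Meg3, chr12:110940001-110950000 held 17 and 9. Of single autosomal windows, 0.175, 0.202 and 0.301% held as many. Each window was picked as the densest of the 120, 20 and 40 windows of its domain, so low shares follow in part from that choice.

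The densest windows of the other domains held fewer sites. For Peg3 it was chr7:6550001-6560000 with 16 and 2 sites, and for Ube3a, Snrpn and Ndn chr7:69600001-69610000 with 13 and 3. For Mest, chr6:30680001-30690000 held 15 of the domain's 23 first-library sites (65.2%) and 1 of the second library's. At Igf2r and Airn, chr17:12960001-12970000, the window that holds the Igf2r promoter, had 11 and 2 sites and all 4 control shRNA sites of the domain. Of autosomal windows, 0.977 to 2.22% held as many sites as these, which were picked in the same way from 20 to 330 windows a domain.

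**Figure D2:**
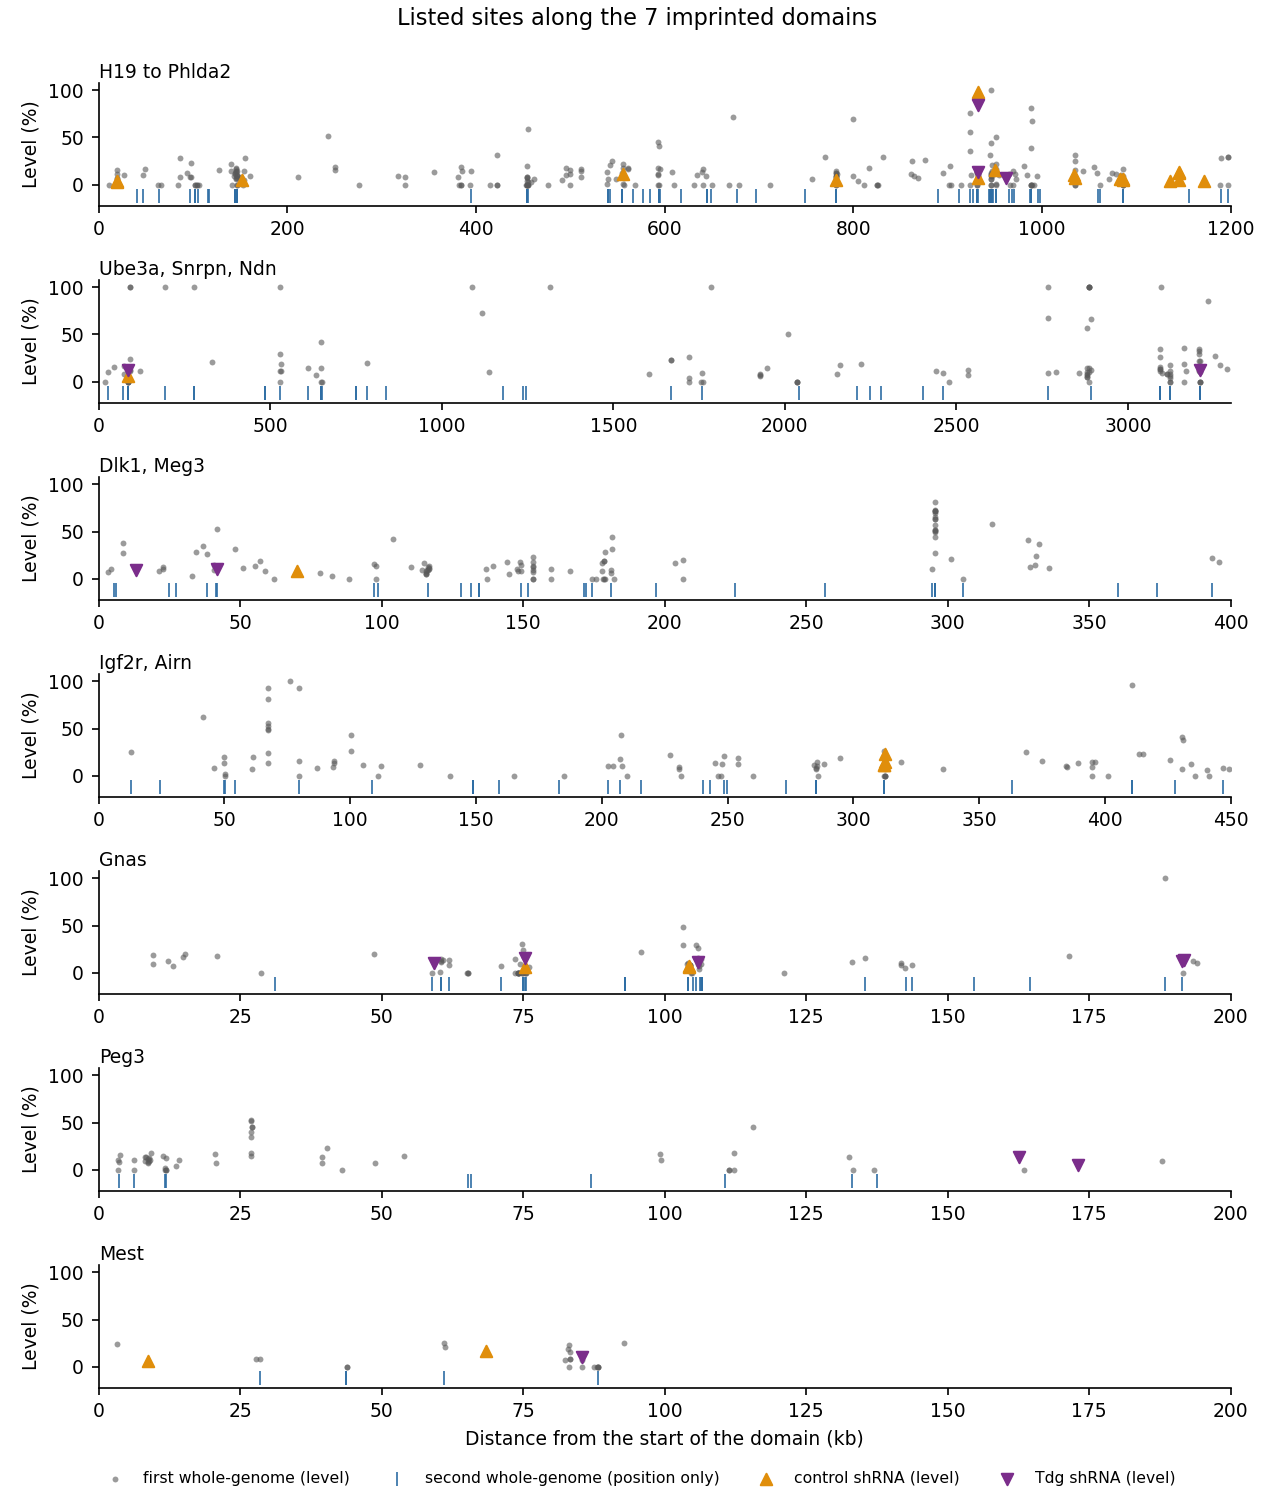
Position of every listed site along each domain, in kb from its start, with the level in the first whole-genome library (grey), the control shRNA library (upward triangles) and the Tdg shRNA library (downward triangles). Blue ticks give the positions of the second whole-genome library, which carry p-values and no levels here. The narrow column of high levels at Dlk1 and Meg3 and the scattered sites at 100% across Ube3a, Snrpn and Ndn stand out.

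Levels in the first library were mostly low in domains and flanks alike. The median over the 715 domain sites was 10.5% (95% interval 9.90 to 11.3), against 11.2% (10.8 to 11.6) over 2635 flank sites and 11.1% over the autosomes. Exactly 0 after background correction were 172 domain sites (24.1%, interval 21.0 to 27.4), against 21.7% in the flanks and 20.2% in the autosomes. At least 50% was reached by 56 domain sites (7.83%, 5.97 to 10.1), against 6.11% in the flanks. The domain median was below the flank median in 5 domains and above it in 2.

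Gnas differed most from its surroundings. Its 74 sites had a median of 8.61% (7.11 to 10.8), with 0% as the lowest and 100% as the highest. Its flanks had a median of 13.8% (12.7 to 15.7), 14.1% on the left and 13.3% on the right. Levels from 25 to 75% were found at 6.76% of the domain's sites (2.23 to 15.1) and at 22.7% of those in the flanks (18.97 to 26.7). Sequence contexts differed as well. The 5 bases TGCGT were found at 0 of the 74 domain sites and at 62 of 472 flank sites (13.1%), where their median was 33.1%. The bases GCGC had a median of 39.0% at 44 flank sites and of 6.91% at 5 domain sites. At H19 to Phlda2, TGCGT was also rarer than in the flanks, 1 of 244 against 19 of 448 sites, with median levels of 9.59 and 10% over all sites. The part of any context in the difference at Gnas was not tested.

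**Figure D3:**
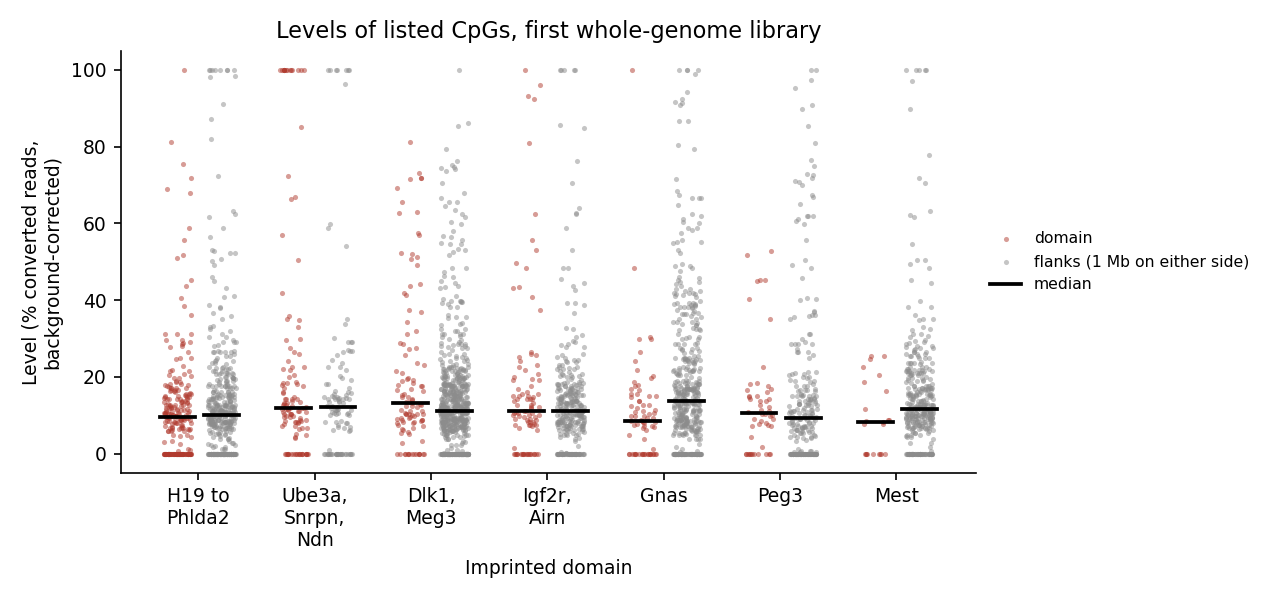
Level of each listed CpG of the first whole-genome library, as percent converted reads after background correction, in the 7 domains (red) and in their flanks (grey), with black bars at the medians. Domain medians lay between 8.14 and 13.1%, and the Ube3a, Snrpn and Ndn domain held 14 of the 17 domain sites at 100%.

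Dlk1 and Meg3 had the highest median, 13.1% (10.3 to 16.9), against 11.0% in its flanks (10.5 to 11.9). Of its 107 sites, 15 (14.0%, 8.06 to 22.1) lay at 50% or more, against 4.83% in the flanks (3.33 to 6.76), and its highest level was 81.2%. Most of these high sites lie in the cluster shown at the start. In the 81 bases from chr12:110945415 to 110945495, the first library listed 16 CpGs at 27.5 to 81.2%, with a median of 62.9% and 13 of them at 50% or more. Without them the domain's median was 11.0% over 91 sites, and 2 sites at 50% or more were left. The second library listed 8 of the 16, all on the plus strand, with p-values from 2.22e-16 to 4.25e-08, and no minus-strand position among them. CpGs this close can share reads and are not separate observations. The context TGCGT was that of 9 of the 16 and made up 18 of the domain's 107 sites (16.8%), against 5.44% in the flanks. Where the cluster lies relative to genes was not analysed here, as no annotation of mm9 was used.

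**Figure D4:**
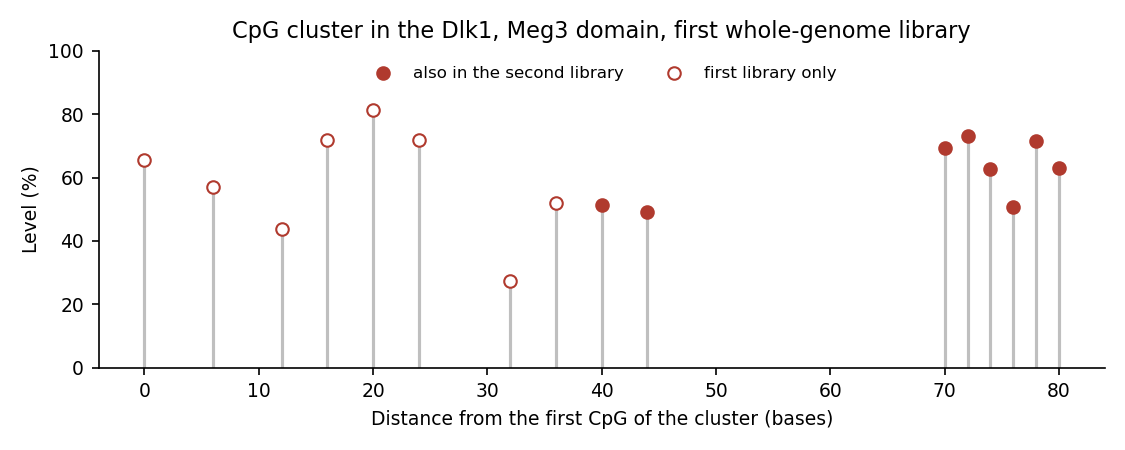
Level of the 16 CpGs of the first whole-genome library in the cluster of the Dlk1 and Meg3 domain, by distance in bases from its first CpG. Filled points mark the 8 CpGs that the second whole-genome library listed too, which are the last 8 of the cluster.

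The Ube3a, Snrpn and Ndn domain had a median close to that of its flanks, 12.01% (10.4 to 14.1) against 12.3%. It nevertheless held 20 sites at 50% or more (16.7%, 10.5 to 24.6), against 9.91% in its flanks (5.05 to 17.0), and the intervals overlap. These lay at 13 places more than 10 kb apart, and 14 of them were at 100%. The second library listed 3 of the 20. The depth of the first library is unknown, so the number of reads behind each level of 100% cannot be given. The cause of these levels was not tested.

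In each of the other 4 domains, the interval of the median held the median of the flanks. H19 to Phlda2 had a median of 9.59% (8.35 to 10.5), against 10% in its flanks. Of its sites 29.5% were at 0, against 26.8% in the flanks. At Igf2r and Airn the median was 11.1% (9.59 to 14.1), against 11.2%. There, 8 of 95 sites (8.42%, 3.71 to 15.9) lay at 50% or more, against 4.40% in the flanks. Peg3 had 10.7% (8.04 to 14.1), against 9.28%, and no site above 52.8%. The 23 sites of Mest had 8.14% (0 to 16.3), against 11.6%, and none above 25.6%. Of these, 9 (39.1%, 19.7 to 61.5) were at 0, against 16.5% in its flanks (12.8 to 20.7). With so wide an interval, the median of Mest does not show that it lay near its flanks.

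The second library gave no levels, but reads could be recovered from its p-values above 1e-07. Domain sites had a median of 12 reads and flank sites 13, with a lowest value of 10 in both. Of the 247 domain sites, 30 (12.1%, 8.35 to 16.9) had a p-value of at most 1e-07, against 16.3% in the flanks (14.0 to 18.8) and 13.7% in the autosomes. H19 to Phlda2 was the lowest of the domains with more than 5 sites. It had 1 such site of 93 (1.08%, 0.0272 to 5.85), against 21 of 156 in its flanks (13.5%, 8.53 to 19.8). Neighbouring sites can share reads, and how far these 21 sites cluster was not analysed. At Dlk1 and Meg3 9 of 36 sites passed (25%, 12.1 to 42.2), 8 of them in the cluster. In the domains, 125 sites lay on the plus strand and 122 on the minus strand.

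Both libraries list plus-strand cytosines, so exact agreement can be counted there. Of 125 plus-strand sites of the second library in the domains, 47 (37.6%, 29.1 to 46.7) were in the first library's list, against 40.2% in the flanks and 34.3% in the autosomes. Within 100 bases of a first-library site lay 75.2%, against 63.0% in the flanks. H19 to Phlda2 shared 10 of 48 (20.8%, 10.5 to 35.0), against 39.5% in its flanks (29.2 to 50.7). Within 100 bases the order was the other way, 37 of 48 (77.1%) against 72.1%. Igf2r and Airn shared 8 of 15, Gnas 7 of 15, Ube3a, Snrpn and Ndn 10 of 21, Dlk1 and Meg3 9 of 20, Peg3 1 of 4 and Mest 2 of 2. Read the other way, the second library held 6.57% of the first library's 715 domain sites, against 7.55% in the flanks and 6.02% in the autosomes. It held 3 of the 172 at 0 (1.74%) and 32 of the 487 above 0 and below 50% (6.57%), where the autosomes gave 0.846 and 6.50%. Of the 39 from 50 to below 100% it held 9 (23.1%), and of the 17 at 100% it held 3 (17.6%), where the autosomes gave 16.3 and 22.8%.

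Over all shared sites, the median first-library level was 14.3% at H19 to Phlda2 and 21.0% at Ube3a, Snrpn and Ndn. It was 62.8% at Dlk1 and Meg3, 16.9% at Igf2r and Airn, 14.6% at Gnas and 17.1% at Mest. The only shared site of Peg3 was at 0%. The shared sites with the smallest p-values are the top of each domain and not its typical sites. At H19 to Phlda2 they were modest. chr7:150295285 (context GTCGG) had 17.1% in the first library and 5 of 10 reads converted in the second. chr7:150481526 (GCCGT) had 14.4% and 6 of 20 reads, and chr7:150646522 (GGCGC) had 14.6% and 6 of 25 reads. No shared site of this domain exceeded 29.0% in the first library.

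In the Ube3a, Snrpn and Ndn domain, 2 of the strongest shared sites were at 100% in the first library with a p-value listed as 0 in the second. These were chr7:66592974 (TGCGT) and chr7:66677284 (CGCGA). The third, chr7:67047304 (GCCGA), had 41.8% and a p-value of 2.69e-13. At Dlk1 and Meg3 the 3 strongest were CpGs of the cluster, at 110945487, 110945489 and 110945493, with 73.1, 62.8 and 71.6%.

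The Igf2r and Airn domain and the Gnas domain each had 1 shared CpG at 50% or more in the first library. Both also had a small p-value in the second library, which depends on depth as well as level. At Igf2r and Airn, chr17:13060740 (TGCGA) had 96.2% and a p-value of 6.71e-10. Gnas held its only site above 48.5% at chr2:174238321 (TTCGG), with 100% and a p-value listed as 0. Peg3 shared 1 site, chr7:6561811 (CCCGT), listed at 0% in the first library although 4 of 11 reads were converted in the second. Mest shared chr6:30628529 (GACGG) at 8.56% with 4 of 11 reads and chr6:30661095 (GGCGC) at 25.6% with 3 of 10 reads.

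Knock-down of Tdg, the glycosylase that removes both oxidised forms, can be compared with the control shRNA only as 1 library against 1. There is no replicate check and no test. In the domains the control library listed 29 sites and the Tdg library 15, a ratio of 0.517 (0.258 to 0.997). Among sites at 10% or more the direction turned, with 11 control and 12 Tdg sites and a ratio of 1.09. The ratio at this cut was not computed for the flanks or the autosomes, so the turn does not set the domains apart. Over the autosomes the Tdg list also had the higher median level, 12.3% against 9.89%. Over all sites, the flanks gave 107 and 61, a ratio of 0.570 (0.409 to 0.788), and the autosomes 0.674 (0.655 to 0.693). The depth of both libraries is unknown, so the ratio of counts also carries any difference in reads.

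H19 to Phlda2 made up most of the difference. It had 18 control and 3 Tdg sites, a ratio of 0.167 (0.0314 to 0.571), against 17 and 12 in its flanks (0.706, 0.308 to 1.57). Some of the 18 lie close together and can share reads, such as those at 150845251, 150845266 and 150845283. How often other regions have so low a ratio was not computed. The other 6 domains together had 11 and 12, a ratio of 1.09 (0.441 to 2.73). Ube3a, Snrpn and Ndn had 1 control and 2 Tdg sites, as did Dlk1 and Meg3. Gnas had 3 and 5, and Mest 2 and 1. At Igf2r and Airn there were 4 and 0, and at Peg3 0 and 2. A count of 0 allows up to 3 sites.

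**Figure D5:**
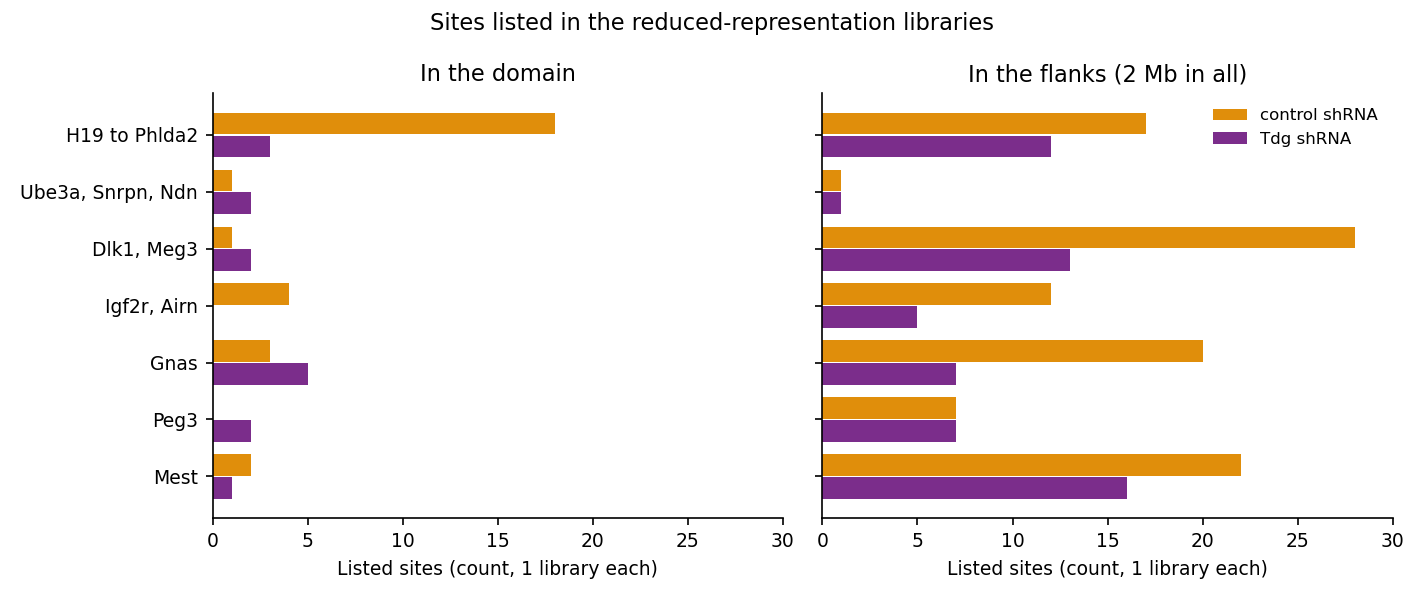
Number of listed sites in the control shRNA library (orange) and the Tdg shRNA library (purple), 1 library each, in every domain and in its flanks. In the domains, H19 to Phlda2 shows the largest gap, 18 against 3, and Igf2r and Airn had no Tdg shRNA site and Peg3 no control shRNA site.

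Levels in these libraries were low in most domain sites. The 29 control sites ran from 3.27 to 98.3% with a median of 6.98% (5.71 to 11.7), against 10.2% in the flanks. The 15 Tdg sites ran from 4.97 to 84.5% with a median of 12.3%, against 12.5% in the flanks. At Gnas the 3 control sites had 5.78, 6.37 and 7.06%, and the 5 Tdg sites ran from 10.7 to 15.4%, from 1 library each. Over all autosomes the Tdg library was also higher, with a median of 12.3% against 9.89%. Different CpGs were listed in each, which makes this no comparison of the same positions. A whole-genome site lay within 100 bases of 16 of the 29 control sites (55.2%) and 9 of the 15 Tdg sites (60%). The same shares in the flanks and over the autosomes were not computed, so these values do not set the domain sites apart.

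Of 29 control and 15 Tdg sites in the domains, 1 CpG was listed in both shRNA libraries, chr7:150631702 (TACGG) in H19 to Phlda2. The flanks had 10 such CpGs among 107 control and 61 Tdg sites. The share over the genome was not computed. The CpG at H19 to Phlda2 had 98.3% in the control and 84.5% in the Tdg library, the highest value of either library in the domains. In wild-type cells the first whole-genome library listed the same CpG at 10.6%, and the second did not list it. The 13 first-library sites within 500 bases lay between 0 and 16.5%. The CpG is thus high in both reduced-representation libraries and low in the whole-genome one. Of the 54 CpGs of the genome at 80% or more in both shRNA libraries and listed in the first whole-genome library, the median there was 75.5%, and 9 (16.7%) lay below 25%.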

How the data were processed

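The members, the gene list and the comparisons were chosen with earlier results of these data known. The submitters' processing notes name Bismark 0.10.1, CASAVA 1.8 and the build mm9. How sites were called and filtered, and the depth, is not given in the sources used here. The authors deposited a percent level per CpG, already corrected for a background, for the first whole-genome and both shRNA libraries. Of the second whole-genome library, the authors deposited p-values. Reads were recovered from it where an upper binomial tail at a background of 3.8% matched 1 combination of reads (relative tolerance 1e-08) and p exceeded 1e-07. Because not every file holds levels and none holds coverage, no minimum coverage was set and no count test was made.

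Sites were counted in each domain and in the 1 Mb on either side, with Python 3.11.15, pandas 2.3.3 and scipy 1.17.1. Shares have exact (Clopper-Pearson) 95% intervals, ratios of counts exact conditional binomial intervals, and medians order-statistic intervals, all of which cover counting error only. Neighbouring sites share reads and PCR copies were not told apart. Autosomal windows with at least 20 flank sites gave the background of the 1.5-fold rule. No p-value between groups was computed, since the values of the 2 wild-type libraries differ in unit and each shRNA group had 1 library. SDs over the wild-type libraries measure only the spread between these samples, which may be technical. The shRNA lists do not give the strand, so a position was taken for either strand of its CpG. Named sites were the up to 3 doubly listed plus-strand sites per domain with the smallest p-value, the densest 10-kb window, and the CpGs listed in both shRNA libraries. Of 39 listed genes, 38 were found in the RefSeq table and 31 had a promoter. The scripts were tested on simulated data.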

Additional observations from a re-analysis of the deposited data

How the results depend on the processing

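The pooled log2 density ratio of domains over flanks, -0.68 over both whole-genome libraries, was -0.71 to -0.65 with 1 library left out. It was -0.76 with flanks of 0.5 Mb, -0.74 with 2 Mb, -0.79 with stricter lists (a p-value of at most 0.001 or a level of at least 10%) and -0.96 without H19 to Phlda2. In alternatives chosen after seeing the data, it was -0.098 with flanks weighted by domain length and 0.055 without Ube3a, Snrpn and Ndn. The share of sites in both libraries, domains minus flanks, was -2.60 points, but 12.2 points within 100 bases and 10.3 points with stricter lists. The log2 ratio of Tdg to control shRNA counts, -0.95, became 0.13 with the stricter list and 0.13 without H19 to Phlda2, 12 sites against 11 in both cases. The difference in median level in the first library kept its direction in the 5 alternatives run, while in the Tdg shRNA library it turned from -0.24 to 0.972 points with flanks of 0.5 Mb. Of 49 density alternatives for single domains, 46 kept their direction. The cause of these shifts was not tested, beyond the weight of the longest domain. Unknown depth, CpG number and coverage limit all densities. No paired analysis was possible because the labels give no replicate numbers shared between groups.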
